A study of Mus musculus with 6 samples.

Results

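The mitochondrial ribosomal proteins of the mouse heart were compared between pups with an activated human SRY transgene (hSRY-ON) and control pups (hSRY-OFF). Members were all probes whose gene symbol begins with Mrpl (large subunit) or Mrps (small subunit) followed by a digit, which gave 105 probes of 72 genes among 25697 probes with 18138 symbols. The large subunit held 65 probes of 44 genes and the small subunit 40 probes of 28 genes. The hearts came from male FVB pups (FVB/N in the methods) at postnatal day 6, 3 hSRY-ON and 3 hSRY-OFF, and the total RNA of each heart was hybridized to 1 Illumina MouseRef-8 BeadChip array. The transgene came from 1 line with a single-copy Signalox-hSRY insert at the H11 locus. In it a CAG promoter, active in most cell types, drives FLAG-tagged human SRY and EGFP once Cre has removed a DsRed2 cassette. The hSRY-ON pups had received Cre from the oocyte of a Ddx4-Cre mother and were chosen for not carrying the Ddx4-Cre transgene themselves. The genotype of the controls is uncertain, since the methods define hSRY-OFF as the transgene without recombination (with DsRed2 on) and the results text describes littermates with Ddx4-Cre alone or with neither transgene. hSRY-ON pups grew slowly and had little milk in the stomach, so that activated SRY, feeding state and growth cannot be told apart in this comparison. The human transgene was not measured here, so its activity in these RNA samples was not checked.

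Mitochondria carry their own ribosome, which makes the few respiratory chain and ATP synthase subunits that mitochondrial DNA encodes. Its RNAs come from mitochondrial DNA, but all of its proteins are encoded in the nucleus, made in the cytosol and imported. Some of them have a counterpart in the bacterial ribosome, and others exist only in mitochondria. The heart, which beats on oxidative metabolism, is rich in mitochondria and enlarges this machinery after birth.

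Because the members are separate nuclear genes scattered over the chromosomes, the stretch ahead of each gene is shown for those on which the results turn. RefSeq (GRCm38.p6) gave a promoter entry for 63 of the 72 genes, 250 bases before to 50 bases after the annotated start. In these 300 bases 4 short motifs were searched on both strands. They were GCGCA, any base and GCGC in a row for NRF1, CCGGAAG for ETS factors such as GABP, AAGATGG for YY1 and AAGGTCA for the estrogen-related receptors (ERR). The 120 bases before the start follow, 5′ to 3′ on the strand of the gene, with every match on either strand in capitals. Among them are lowered genes with a match in these 120 bases (Mrpl51, Mrpl45, Mrpl12, Mrps18a) and without (Mrpl37, which has a YY1 match after its start), uncalled genes with and without a match (Mrpl9, Mrpl20), and a large and a small subunit gene that face away from each other with 42 bases between their starts (Mrpl46, Mrps11), so that their stretches overlap. None of the matches shown here overlap one another.
Mrpl51, chr6:125192080-125192199, plus strand: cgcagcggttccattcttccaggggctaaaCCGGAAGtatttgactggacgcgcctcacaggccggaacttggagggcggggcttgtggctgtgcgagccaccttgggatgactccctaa
Mrpl37, chr4:107066867-107066986, minus strand: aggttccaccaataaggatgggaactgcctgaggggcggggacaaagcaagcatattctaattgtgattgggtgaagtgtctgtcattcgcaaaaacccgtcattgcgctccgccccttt
Mrpl45, chr11:97315596-97315715, plus strand: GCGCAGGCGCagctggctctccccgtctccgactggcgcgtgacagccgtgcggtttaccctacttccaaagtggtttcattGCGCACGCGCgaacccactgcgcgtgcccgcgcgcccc
Mrpl12, chr11:120484517-120484636, plus strand: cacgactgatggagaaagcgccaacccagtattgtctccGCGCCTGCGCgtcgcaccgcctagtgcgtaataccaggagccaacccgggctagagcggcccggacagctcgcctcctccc
Mrps18a, chr17:46110884-46111003, plus strand: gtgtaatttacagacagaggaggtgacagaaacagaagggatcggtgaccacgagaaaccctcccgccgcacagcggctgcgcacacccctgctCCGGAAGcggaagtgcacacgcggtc
Mrpl9, chr3:94443216-94443335, plus strand: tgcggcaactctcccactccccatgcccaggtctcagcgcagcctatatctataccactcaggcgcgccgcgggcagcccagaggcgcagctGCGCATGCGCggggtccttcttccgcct
Mrpl20, chr4:155802758-155802877, plus strand: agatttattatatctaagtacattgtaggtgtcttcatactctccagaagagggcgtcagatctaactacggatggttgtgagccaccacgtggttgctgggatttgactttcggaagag
Mrpl46, chr7:78783090-78783209, minus strand: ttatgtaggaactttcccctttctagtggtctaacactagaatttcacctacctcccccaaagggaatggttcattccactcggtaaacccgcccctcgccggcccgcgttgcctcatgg
Mrps11, chr7:78783011-78783130, plus strand: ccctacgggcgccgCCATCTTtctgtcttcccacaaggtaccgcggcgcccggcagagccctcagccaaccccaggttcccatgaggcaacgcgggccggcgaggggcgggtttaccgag

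An ETS match was present in 24 of the 63 entries (38.1%), against 9.93% of 27025 genes with an entry. NRF1 matches were in 11 entries (17.5% against 5.19%), YY1 matches in 12 (19.0% against 7.28%) and ERR matches in 4 (6.35% against 5.38%). The median GC content was 58.3% in the members and 53.3% in all entries, and its part in these shares was not tested. All entries include genes not detected in these hearts, and shares over the tested genes alone are not given here. Members with at least 1 lowered probe (40 genes with an entry) held an ETS match in 37.5% and an NRF1 match in 17.5%, and tested members with none (19 genes) in 42.1% and 10.5%. YY1 matches were in 17.5% and 21.1% of these groups, and ERR matches in 5.0% and 10.5%. For the ETS, NRF1 and YY1 motifs, members lay further from all promoters than lowered and uncalled members lay from each other, and for ERR the order was reversed. These differences were not tested, and the uncalled group held only 19 genes. A match is a run of letters and does not show that a factor binds there.

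The transcripts of both ribosomal subunits were lower in the hSRY-ON hearts. Of 53 tested large subunit probes 32 fell and none rose, and of 37 tested small subunit probes 22 fell and none rose (limma, Benjamini-Hochberg adjusted p under 0.05, n = 3 hearts per group). Together 54 of 90 probes fell, or 60%, where 13.7% of all 12970 tested probes fell and 13.8% rose, 27.5% together. Without adjustment 70 of the 90 had a p under 0.05. The median log2 fold change, hSRY-ON minus hSRY-OFF throughout, was -0.48 for the large subunit (1.39-fold lower) and -0.45 for the small subunit (1.37-fold lower), beside -0.0046 over all tested probes. Falls were mostly modest, with the middle of the 90 values between -0.66 and -0.37, and a fall of at least 2-fold was found in 8 probes of 6 genes (4.57% of all tested probes had a fall of that size). That count rested on the background correction, since without it or with a larger offset (normexp with offset 50) 3 probes of 2 genes, both of Mrpl37 and that of Mrpl55, kept a fall of at least 2-fold. The fit without normalization between arrays left 12 large and 5 small subunit probes called, all lower. In that fit 18.9% of the member probes fell, beside 8.99% of all tested probes. There the median over all probes was itself shifted to -0.12 and 38.5% of all calls were higher, against 50.1% with normalization, and the members' median minus that of all probes was -0.45, against -0.46 in the reported fit. Leaving out 1 heart lowered the member calls from 54 to 25 without hSRY-OFF replicate 1, to 31 without hSRY-OFF replicate 2, to 28 without hSRY-ON replicate 1 and to 28 without hSRY-ON replicate 2, and left 54 and 43 without the replicate 3 of hSRY-OFF and hSRY-ON. In these fits, in that order, 8.38%, 9.42%, 9.3%, 11.1%, 14.5% and 12.6% of all tested probes fell.

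**Figure D1:**
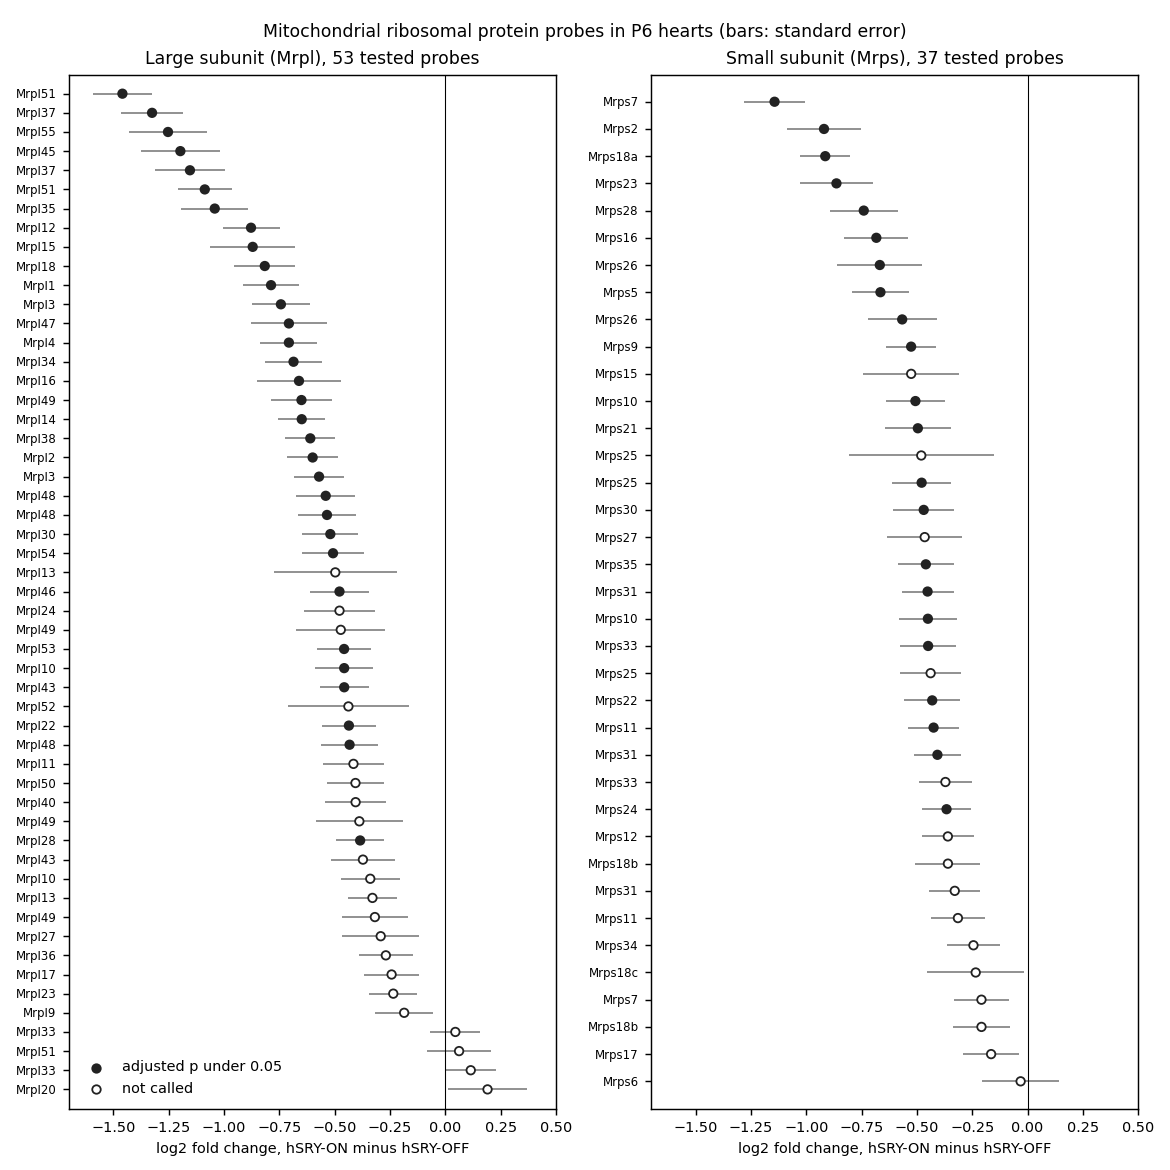
Log2 fold change (hSRY-ON minus hSRY-OFF, horizontal axis) of each tested probe, one row per probe, with bars for its standard error, for 53 large subunit probes (left) and 37 small subunit probes (right). Filled points passed an adjusted p under 0.05 (limma), and all 54 of them lie left of 0; 4 points of the large subunit lie right of 0.

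Seen heart by heart, the difference was present in each hSRY-ON pup. Relative to the hSRY-OFF mean of each probe, the median large subunit probe stood at -0.49, -0.60 and -0.43 (log2) in hSRY-ON replicates 1, 2 and 3, and the median small subunit probe at -0.44, -0.50 and -0.37. The hSRY-OFF hearts themselves stood between -0.05 and 0.06 on this scale. In replicate order, 44, 47 and 46 of the 53 large subunit probes and 34, 34 and 31 of the 37 small subunit probes lay below the lowest hSRY-OFF heart. All 3 hSRY-ON hearts lay below all 3 hSRY-OFF hearts in 42 large and 31 small subunit probes, 73 of 90, against 21.6% of all tested probes (45.2% when separation in either direction is counted), and none of the 90 had all hSRY-ON hearts above. In the deposited intensities, before any normalization, the median member probe read 2820, 2911 and 1827 in hSRY-OFF replicates 1 to 3 and 1566, 1654 and 1771 in hSRY-ON replicates 1 to 3. On that raw scale hSRY-OFF replicate 3, the dimmest array of the series, was close to the hSRY-ON hearts. These are whole hearts, so fewer cardiomyocytes and less of each transcript per cardiomyocyte cannot be told apart.

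Among the large subunit genes, Mrpl51 and Mrpl37, which occur only in mitochondrial ribosomes, each had 2 lowered probes with a log2 fold change beyond -1. One Mrpl51 probe (ILMN_2831273) had normalized log2 intensities of 6.42, 6.63 and 6.27 in hSRY-OFF and 5.02, 5.03 and 4.89 in hSRY-ON hearts. It was above background on every hSRY-OFF array and on no hSRY-ON array, so its change has only a bound. Taken against the lowest detected signal of each hSRY-ON array, it was at least 2.16-fold lower in hSRY-ON (adjusted p = 0.00048, limma), with measured means of 6.44 and 4.98. Another Mrpl51 probe (ILMN_2645772) gave 8.02, 7.92 and 7.91 against 7.01, 6.84 and 6.74, a log2 fold change of -1.09 ± 0.12 (SE; adjusted p = 0.00096, limma). Both probes separated the groups without overlap, and both were still called without background correction, at -0.42 and -0.57. The brighter Mrpl37 probe (ILMN_1254715) read 11.70, 11.66 and 11.38 in hSRY-OFF and 10.31, 10.30 and 10.67 in hSRY-ON hearts. Its log2 fold change was -1.15 ± 0.16, and that of the dimmer probe (ILMN_2751709) was -1.32 ± 0.14 (adjusted p = 0.0019 and 0.00077, limma). The lowest hSRY-OFF heart stayed above the highest hSRY-ON heart on each probe.

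Log2 fold changes beyond -1 were also found in Mrpl55, Mrpl45 and Mrpl35, of which Mrpl55 alone stayed there without background correction (-1.03). Mrpl45 and Mrpl35 then had -0.47 and -0.66 and were still called. Mrpl45 sits where the new protein chain leaves the ribosome and ties it to the inner membrane. Its log2 intensities were 7.13, 7.36 and 7.18 in hSRY-OFF and 5.67, 6.15 and 6.27 in hSRY-ON hearts (-1.20 ± 0.18, adjusted p = 0.0027, limma). Mrpl55 read 10.17, 10.20 and 10.04 against 8.54, 8.93 and 9.18 (-1.25 ± 0.17). In both genes hSRY-ON replicate 1 was the lowest heart, and no hSRY-ON heart reached the controls. Mrpl35, which has a bacterial counterpart, read 8.51, 8.55 and 8.64 against 7.40, 7.36 and 7.82 (-1.04 ± 0.15). Mrpl12 forms the stalk that receives the translation factors, and was among the brightest member probes. It read 13.15, 13.07 and 13.18 in hSRY-OFF and 12.26, 12.08 and 12.42 in hSRY-ON hearts, a fall of 1.84-fold (-0.88 ± 0.13, adjusted p = 0.0026, limma). The control hearts of Mrpl35 and Mrpl12 lay close together and above each hSRY-ON heart. The other 24 lowered large subunit probes ranged from Mrpl15 (-0.87, but -0.23 without background correction) and Mrpl18 (-0.82) to Mrpl28 (-0.38).

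In the small subunit, the largest fall was that of 1 of the Mrps7 probes (ILMN_2981821), a gene with a bacterial counterpart in the head of the subunit. It read 9.21, 9.28 and 9.19 in hSRY-OFF and 8.29, 7.87 and 8.08 in hSRY-ON hearts (-1.14 ± 0.14, adjusted p = 0.0012, limma, and -0.83 without background correction). Mrps2, another protein of bacterial descent, read 8.94, 8.94 and 8.58 against 7.84, 7.71 and 8.15 (-0.92 ± 0.17). Neither gene showed any overlap of the groups. Mrps23, found only in mitochondria, read 11.18, 11.04 and 10.68 against 10.01, 10.01 and 10.29 (-0.86 ± 0.17), and Mrps28 read 11.82, 11.69 and 11.41 against 10.77, 10.85 and 11.08 (-0.74 ± 0.15). In Mrps2, Mrps23 and Mrps28 hSRY-OFF replicate 3 was the lowest control and hSRY-ON replicate 3 the highest of its group, which narrowed the gap without closing it. Mrps16, loss of which is known to impair mitochondrial translation, read 11.80, 11.60 and 11.82 against 11.07, 10.85 and 11.26 (-0.68 ± 0.15). Mrps5, also of bacterial descent, read 9.43, 9.13 and 9.23 against 8.56, 8.54 and 8.69 (-0.66 ± 0.13). Each of these was lower in 3 of 3 hSRY-ON hearts. Both Mrps26 probes fell, and the brighter read 10.91, 10.82 and 10.24 against 9.86, 10.00 and 10.11 (-0.67 ± 0.19, adjusted p = 0.038, limma), with hSRY-OFF replicate 3 only just above the hSRY-ON hearts. With 1 heart left out in turn its value ranged from -0.87 to -0.54, and it passed the test in 1 of these 6 fits, the one without hSRY-OFF replicate 3. The 14 lowered small subunit probes outside those named here ranged from Mrps26 (dimmer probe, -0.57) to Mrps24 (-0.37), Mrps18a left aside.

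**Figure D2:**
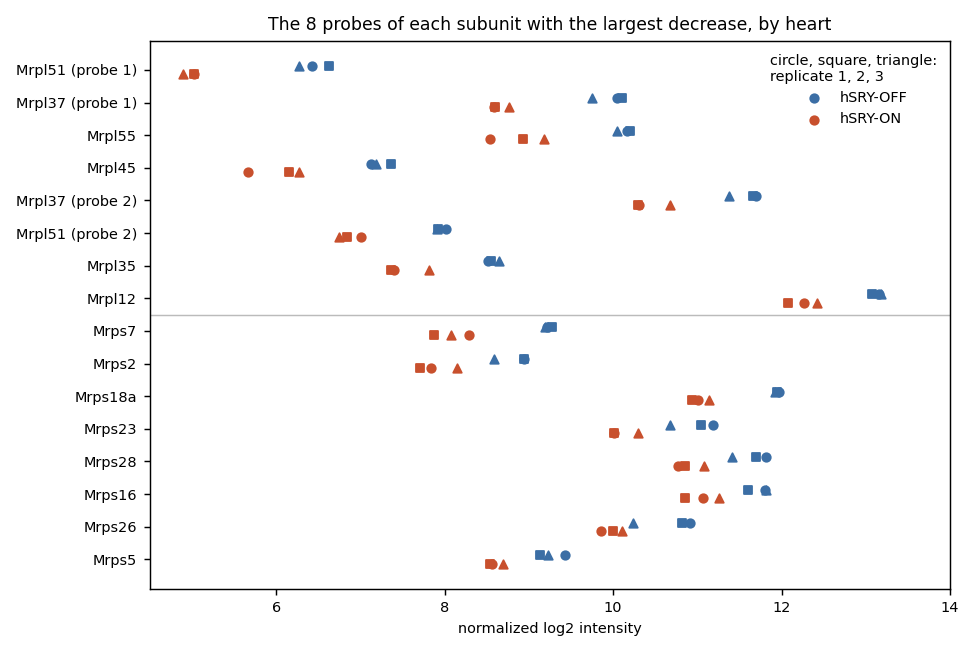
Normalized log2 intensity (horizontal axis) of the 8 probes of each subunit with the largest decrease, with 1 point per heart, hSRY-OFF in blue and hSRY-ON in orange, and circle, square and triangle for replicates 1, 2 and 3. In all 16 rows the hSRY-ON points lie left of the hSRY-OFF points; the gap is smallest for Mrps26.

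The symbol does not always give the particle. Mrps18a and Mrps30 carry small subunit names, but ribosome structures place their proteins in the large subunit. Mrps18a read 11.97, 11.94 and 11.92 in hSRY-OFF and 11.01, 10.94 and 11.14 in hSRY-ON hearts (-0.91 ± 0.11, adjusted p = 0.0014, limma). Mrps30 read 11.51, 11.60 and 11.25 against 10.89, 11.09 and 10.97 (-0.47 ± 0.14, adjusted p = 0.039, limma). Both fell with no overlap of the groups. Mrps18b and Mrps18c, the S18 relatives that stay in the small subunit, were not called. The Mrps18b probes had log2 fold changes of -0.36 ± 0.15 and -0.21 ± 0.13 (adjusted p = 0.11 and 0.28, limma), and Mrps18c one of -0.23 ± 0.22 (adjusted p = 0.46, limma). Mrps18c overlapped between the groups, with 9.46, 9.90 and 9.03 in hSRY-OFF and 9.06, 9.27 and 9.36 in hSRY-ON hearts. The difference between the 3 relatives was not tested. Counted by gene, with the brightest tested probe of each, 25 of 40 Mrpl genes and 15 of 27 Mrps genes fell (13.9% of all tested genes fell). With Mrps18a and Mrps30 moved to the large particle, the counts were 27 of 42 and 13 of 25.

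Proteins inherited from the bacterial ribosome and those found only in mitochondria gave similar counts. Of 41 genes with a bacterial counterpart 23 fell (median log2 fold change -0.50), and 14 of 23 mitochondria-only genes fell (median -0.46). Within the large subunit these were 15 of 26 and 9 of 13 genes, and within the small subunit 8 of 15 and 5 of 10. A difference between these classes was not tested. Member probes were bright, with 63 of 90 in the brightest of 4 equal sets of tested probes. In that set 39 of 63 fell, beside 16.1% of all its probes (31.2% were called in either direction). In the 3 dimmer sets 2 of 6, 3 of 6 and 10 of 15 member probes fell, from dim to bright. Of all probes in these sets 10.5%, 13.9% and 14.3% fell, and 22.6%, 28% and 28.1% were called in either direction.

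Some members stood apart from the rest by showing no decrease. Mrpl33, a small bacterial-type protein, was nearly level on both of its probes, with log2 fold changes of 0.11 ± 0.12 and 0.05 ± 0.11 (adjusted p = 0.50 and 0.80, limma). Its brighter probe read 13.17, 13.33 and 13.29 in hSRY-OFF and 13.38, 13.30 and 13.46 in hSRY-ON hearts. Mrpl20 read 8.29, 8.40 and 8.18 against 8.71, 8.11 and 8.62 (0.19 ± 0.18, adjusted p = 0.46, limma), and Mrps6 read 11.08, 11.00 and 10.58 against 10.98, 10.63 and 10.96 (-0.03 ± 0.17, adjusted p = 0.91, limma). All of these overlapped between the groups, and a p that misses the threshold does not show that they were the same. In Mrps17 (-0.16 ± 0.13) and Mrpl9 (-0.19 ± 0.13) the groups also overlapped. Mrpl33, Mrpl20, Mrps6, Mrps17 and Mrpl9 were chosen after their values were seen. Apart from the probes above 0 (both of Mrpl33, 1 of Mrpl20 and 1 of Mrpl51), 86 of the 90 had a negative log2 fold change, against 50.4% of all tested probes. At the level of genes, 46 had at least 1 lowered probe and 21 had none.

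Probes of the same gene did not always give the same call. Among 17 genes with more than 1 tested probe, all probes fell in 5, none in 3, and the calls differed in 9. The signs differed in 1, Mrpl51, whose remaining probe (ILMN_2653020) gave 5.92, 5.63 and 5.65 in hSRY-OFF and 5.92, 5.87 and 5.60 in hSRY-ON hearts (0.06 ± 0.14, adjusted p = 0.78, limma). It was above background on every array, but not by much, with deposited intensities of 163.4 to 212.8 and detection p-values of up to 0.036 against the control beads. The groups overlapped. In Mrps7 the brighter probe (ILMN_2981818) was not called, with 11.43, 11.22 and 11.25 against 11.07, 10.98 and 11.21 (-0.21 ± 0.13, adjusted p = 0.26, limma), while the dimmer probe fell by 1.14 on the log2 scale. The groups did not overlap on either Mrps7 probe, but the sizes of the changes lay far apart. Mrpl49 had 4 tested probes, of which 1 fell (-0.65 ± 0.14) and the others had values of -0.47, -0.39 and -0.32. The remaining differences were between neighbouring values on each side of the threshold. They were -0.46 (called) and -0.34 for Mrpl10, -0.46 (called) and -0.37 for Mrpl43, and -0.42 (called) and -0.31 for Mrps11. Mrps33 had -0.45 (called) and -0.37, Mrps31 had -0.45 and -0.41 (both called) and -0.33, and Mrps25 had -0.48 (called), -0.48 and -0.44. Which transcript each probe reads was not analysed here.

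**Figure D3:**
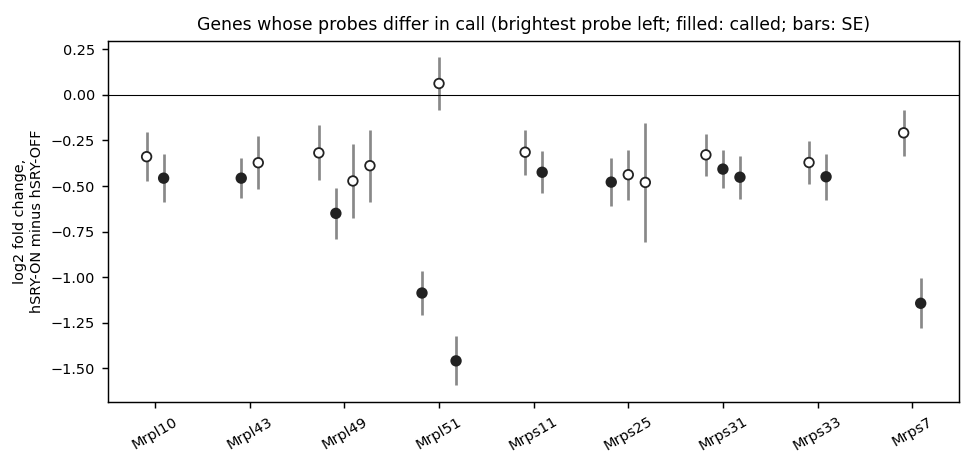
Log2 fold change (hSRY-ON minus hSRY-OFF, vertical axis) of every tested probe of the 9 genes whose probes differ in call, brightest probe on the left of each gene, with bars for the standard error and filled points for an adjusted p under 0.05. Most genes have values close together on both sides of the threshold; Mrpl51 and Mrps7 have probes far apart.

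The remaining 15 member probes were not tested, because they were above background on fewer than 3 arrays, and 11 of them were above background on none. They left Mrpl19, Mrpl21, Mrpl32, Mrpl39 and Mrps14 without a tested probe. One untested Mrpl1 probe (ILMN_3162866) was detected on 2 hSRY-ON arrays and on no hSRY-OFF array, but its deposited intensities of 183.3, 176.8 and 147.6 in hSRY-OFF and 174.4, 181.2 and 152.1 in hSRY-ON hearts overlapped. The tested Mrpl1 probe fell by 0.79 on the log2 scale.

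Ribosomal proteins that carry other symbols were described beside the members. Of 7 such genes 3 fell and none rose (13.9% of all tested genes fell), with a median of -0.49. Ptcd3, a small subunit protein that binds RNA, had the largest fall and read 8.30, 8.19 and 7.68 in hSRY-OFF and 6.88, 6.89 and 7.12 in hSRY-ON hearts (-1.09 ± 0.18, adjusted p = 0.0047, limma). Mrp63 (-0.66) and Ict1, a hydrolase built into the large subunit (-0.60), also fell. Dap3, Chchd1, Aurkaip1 and Gadd45gip1 had values from -0.49 to -0.18 and were not called. Without background correction Ptcd3 and Mrp63 had -0.60 and -0.24 and were still called.

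Of the factors that work on the mitochondrial ribosome, some fell and none rose, and the shares are to be read beside all tested genes, of which 13.9% fell and 14.9% rose. Of 14 tested genes of mitochondrial translation and mRNA handling 8 fell and none rose, with a median of -0.70. This list included Letmd1, which is not a translation factor and was not called (0.24). Lrpprc, which stabilises mitochondrial mRNAs, had the largest fall, with 10.42, 10.27 and 10.43 in hSRY-OFF and 9.08, 9.04 and 9.22 in hSRY-ON hearts (-1.26 ± 0.12, adjusted p = 0.00052, limma). The elongation factors Tsfm (-1.12), Gfm1 (-1.12) and Tufm (-0.88) and the recycling factor Mrrf (-1.08) fell too. Among 18 genes of ribosome assembly and rRNA modification 5 fell and none rose (median -0.34). Rnmtl1, a methyltransferase of the large rRNA, led them with 9.29, 9.07 and 9.36 against 8.31, 8.02 and 8.06 (-1.11 ± 0.14, adjusted p = 0.0014, limma). Of 14 genes that charge mitochondrial tRNAs 5 fell and none rose (median -0.28). Qrsl1, a subunit of the enzyme that finishes glutaminyl-tRNA, read 11.24, 11.29 and 11.40 against 10.26, 10.21 and 10.35 (-1.04 ± 0.11, adjusted p = 0.00090, limma). Lrpprc, Rnmtl1 and Qrsl1 each separated the groups by a wide gap.

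Calls among mitochondrial transcription genes went in both directions. Among factors known to act on promoters of this kind the only higher call was Myc, which passed the filter through the hSRY-ON arrays alone. Among all tested genes 13.9% fell and 14.9% rose. Of 6 transcription genes Tfam, which packages mitochondrial DNA and starts its transcription, fell (9.65, 9.86 and 9.31 against 8.89, 8.88 and 8.87, -0.73 ± 0.16, adjusted p = 0.013, limma). Mterf, a termination factor, rose (7.73, 7.84 and 8.04 against 8.42, 8.35 and 8.19, 0.45 ± 0.13, adjusted p = 0.041, limma). The other 4 were not called. Of 8 promoter-acting factors 2 fell and 1 rose. Ppargc1b, a coactivator of mitochondrial biogenesis, read 10.11, 10.53 and 10.86 against 9.14, 8.92 and 9.40 (-1.35 ± 0.21, adjusted p = 0.0036, limma), and the receptor Esrra (ERR alpha) fell by 0.90 on the log2 scale. Myc was above background on every hSRY-ON array and on no hSRY-OFF array, and was at least 1.31-fold higher in hSRY-ON (adjusted p = 0.022, limma). Without background correction Mterf had 0.29 and was still called, and Myc had 0.18 and was not (adjusted p = 0.11, limma). Nrf1 (-0.0035), Gabpa (-0.18) and Gabpb1 (-0.32), whose products make up the factors that bind the NRF1 and ETS motifs shown above, were not called.

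The products of the mitochondrial ribosome join nuclear-encoded partners in the respiratory chain. Of 70 tested respiratory chain and ATP synthase genes 41 fell and none rose (13.9% and 14.9% of all tested genes), with a median of -0.53, close to the medians of the Mrpl (-0.49) and Mrps (-0.46) genes. The respiratory list, taken by symbol, included Cox4nb, which is not a respiratory chain subunit and was not called (0.05). The cytosolic ribosomal proteins gave other counts. Of 50 tested genes none fell and 4 rose (Rps6, Rps26, Rps15a and Rpl18), with a median of 0.11, and 12 had a negative value. The difference between these lists was not tested. The lists share no gene and the comparison is within the same 6 arrays.

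**Figure D4:**
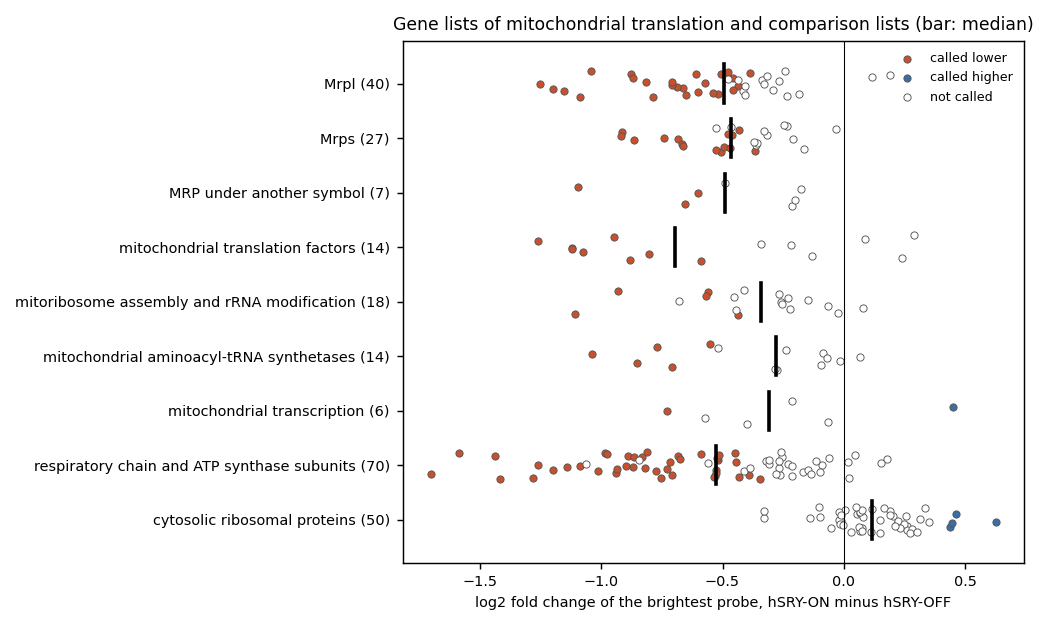
Log2 fold change (hSRY-ON minus hSRY-OFF, horizontal axis) of the brightest tested probe of each gene, one row per gene list with its number of tested genes, orange for called lower, blue for called higher and white for not called, and a bar at the median. The Mrpl and Mrps medians of -0.49 and -0.46 lie near that of the respiratory chain (-0.53), while cytosolic ribosomal proteins centre on 0.11.

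Many members start head to head with another gene, as Mrpl46 and Mrps11 do. Of the 63 members with a promoter entry 24 (38.1%) had a gene starting on the other strand within 1000 bases, against 12.3% of all genes with an entry. The latter share includes genes not detected in these hearts. Leaving that pair aside, 14 neighbours outside the family were tested, and 2 fell (14.3%, beside 13.9% of all tested genes). They were Ndufb5, a complex I subunit beside Mrpl47 (-1.28), and Ncapd2, a condensin subunit beside Mrpl51 (-0.86). The median of the 14 neighbours was -0.17. Their member partners, of which 13 were tested, had a median of -0.60, and 8 fell. Mrpl14 (-0.65) and Mrpl18 (-0.82) fell beside Tmem63b (0.13) and Tcp1 (-0.08), neither of which was called. On the overlapping Mrpl46 and Mrps11 stretch, Mrpl46 fell (-0.48), and Mrps11 fell on 1 of its probes.

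Markers of the cells in the samples were read from the same arrays, where 13.9% of all tested genes fell and 14.9% rose. Cardiomyocyte markers were above background in every heart, except Ryr2 in 1 hSRY-ON heart, and of 7 tested 3 fell (Tnni3 -1.13, Ryr2 -1.09 (-0.36 without background correction), Myh6 -0.51) and none rose. Their summed deposited intensity, before normalization, was 128179.5 to 136732.1 in hSRY-ON and 124910.3 to 184736.5 in hSRY-OFF hearts, which overlapped. After normalization the mean log2 intensity of the 7 markers was 13.01, 13.04 and 12.82 in hSRY-OFF hearts. It was 12.40, 12.48 and 12.66 in hSRY-ON hearts, so that these means did not overlap. The means include Ryr2, whose fall depended on the background correction, and means without it are not given here. Myl7 (-0.30), Actc1 (-0.20) and Myl2 (-0.02) overlapped between the groups, and Nppa (0.14, not called) lay higher in all hSRY-ON hearts. Of 4 endothelial markers 2 fell, of 5 fibroblast markers none was called, and of 5 erythroid markers 1 fell. Of 3 skeletal muscle markers Tnni2 fell (-1.91, and -0.80 without background correction) and Actn3 rose. Actn3 was above background on every hSRY-ON array and on no hSRY-OFF array. It passed the filter through the hSRY-ON arrays alone and was at least 3.1-fold higher there. Of 6 macrophage markers 3 rose, namely Lyz2 (1.02) and Lyz (0.87), both lysozyme symbols, and Cd68 (0.99). Emr1 (-0.21), Fcgr1 (0.19) and Csf1r (0.40) were not called. Their summed deposited intensities, in which the bright lysozyme probes weigh most, were 12211.3 to 13103.5 in hSRY-ON and 6060.5 to 10995.7 in hSRY-OFF hearts. Of 3 smooth muscle markers 2 rose, Acta2 (0.53) and Tagln (1.81). Myh11 (-0.42) was not called, but lay lower in all hSRY-ON hearts. The summed deposited intensities of the smooth muscle list were 86313.2 to 101634 in hSRY-ON and 45076.2 to 60717.2 in hSRY-OFF hearts. Of 4 adipocyte markers 2 rose, Adipoq (1.48) and Ucp1 (3.67), the latter also high in hSRY-OFF replicate 3. Cfd (1.26) was not called. Neither was Cidea, which lay lower in all hSRY-ON hearts (-1.05 ± 0.37, adjusted p = 0.069, limma). Among hepatocyte markers Ttr was above background on every hSRY-ON array and on no hSRY-OFF array, and was at least 3.87-fold higher in hSRY-ON. It passed the filter through the hSRY-ON arrays alone. The other 5 hepatocyte markers were not tested, Alb among them. The lung marker Scgb1a1 had a deposited intensity of 12499.6 in hSRY-ON replicate 1 and of 137.1 to 267.8 in the other hearts, while the other lung markers (Sftpc, Sftpa1, Sftpb) stayed between 132.8 and 186.4 on all arrays, and Sftpb, which alone was tested, was not called. Without hSRY-ON replicate 1 the median log2 fold change was -0.47 for the large and -0.43 for the small subunit. In that fit 28 member probes were called lower, and 9.3% of all tested probes fell. The part of these cell types in the fall of the ribosomal transcripts was not tested.

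The calls of the larger falls were the steadier ones. Of the 54 lowered probes, 25 (23 genes) were called in each of the 6 fits that left out 1 heart. In every one of the 18 settings that tested them, 16 (14 genes) were called. Mrpl37, Mrpl55, Mrpl45, Mrpl35, Mrpl12, Mrps2, Mrps18a, Mrps23, Mrps28, the brighter of the lowered Mrpl51 probes and the lowered Mrps7 probe were among these 16. The dimmer lowered Mrpl51 probe (ILMN_2831273), which had the largest fall, was among them too, but only 14 of the 18 settings tested it. It was called in 3 of the 6 fits that left out 1 heart and did not pass the filter in the others. None of the 54 changed sign in any setting that tested it. The plot of calls by setting shows that calls were fewest without normalization between arrays.

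**Figure D5:**
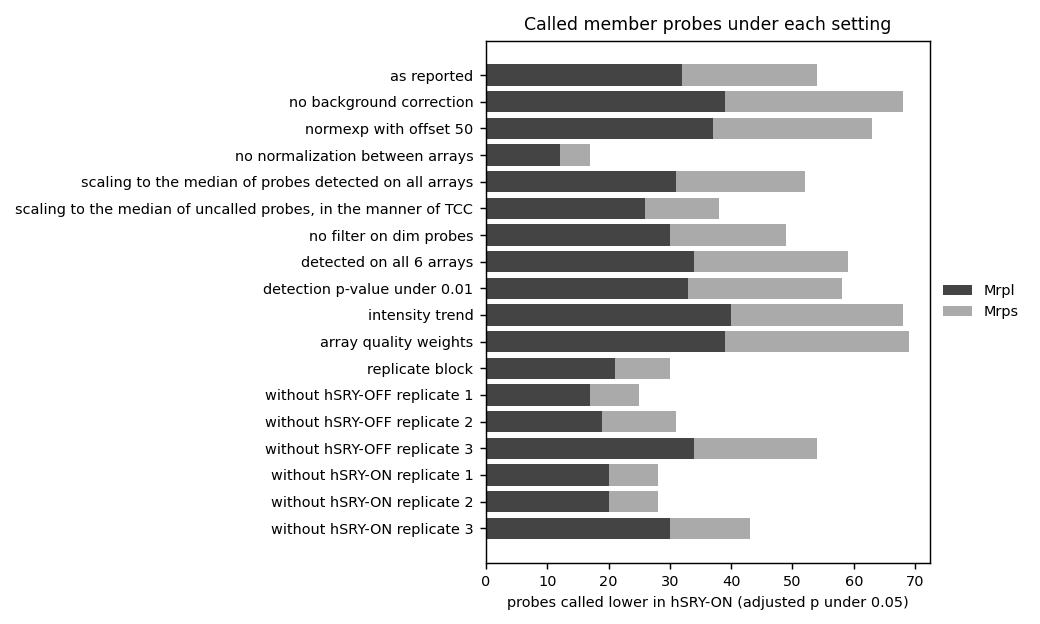
Number of member probes called lower in hSRY-ON (adjusted p under 0.05, horizontal axis) in the reported fit and in each alternative, stacked for the large (dark) and small subunit (light). The count runs from 17 without normalization between arrays to 69 with array quality weights, and is 54 as reported. In these fits, in that order, 8.99%, 19.2% and 13.7% of all tested probes fell.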

How the data were processed

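The authors hybridized total RNA of 3 hSRY-ON and 3 hSRY-OFF hearts to MouseRef-8 v2.0 BeadChips and deposited the mean bead intensity of each probe, not normalized, with a detection p-value against the negative-control beads of the array. The methods name TCC without settings, and the submitters' processing notes name limma. Bead summary software is not given in the sources used here, and no slide is named.

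With R 4.3.3 and limma 3.58.1, neqc corrected the background (offset 16, controls inferred from the detection p-values), quantile normalized the arrays and took log2. Probes with a detection p-value under 0.05 on at least 3 of 6 arrays were tested (12970 probes, 9660 genes) with lmFit and eBayes, group as the only term, and Benjamini-Hochberg adjustment over all of them, two-sided. Arrays detected 12138 to 13172 probes each, arrays of a group correlated at 0.983 or more, and no arrays were identical. Precision is limited by having 3 arrays a group, and 3 hearts against 3 allow no two-sided exact permutation p-value below 0.1. Nothing says whether pups of a group shared a litter.

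In simulated data for this comparison (12997 probes), 200 of 200 probes changed by 1 on the log2 scale were called, with 9 false calls and a median ratio of fitted to true change of 0.91. Every simulated probe had the same log2 noise, the median of the brightest of 4 equal sets, and no other probe was changed. In the real data dim probes were noisier, with a median SE of 0.20 in the dimmest set and 0.13 in the brightest. The simulation therefore does not give the power for dim probes or for changes smaller than 1, which most members had.

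Named members are the 8 called probes of each subunit with the largest decrease and with the largest increase (there were none), genes whose probes differ in call or sign, the S18 relatives, members placed in the other particle, and in each pathway list the called gene with the largest decrease and the largest increase. A few more are named as chosen after their values were seen or as list examples. The members, lists and motifs were chosen with earlier results of these data known. Symbols are those of the array. Plots used matplotlib 3.10.9 under Python 3.11.15. The alternatives were other background corrections, normalizations, filters and variance models, a replicate block and each heart left out.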

Additional observations from a re-analysis of the deposited data

How the results depend on the processing

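Every called member was lower in hSRY-ON under each of the 17 alternatives that tested it. Without normalization between arrays 12 large and 5 small subunit probes were called, with medians of -0.60 and -0.55, and scaling in the manner of TCC left 12 small subunit probes called. Of all tested probes 8.99% and 11.9% fell in these fits. Leaving out 1 heart gave 17 to 34 large and 8 to 20 small subunit calls, with medians of -0.57 to -0.43 and -0.49 to -0.41. In those fits 8.38% to 14.5% of all tested probes fell. The replicate block left 21 large and 9 small subunit calls, where 11% of all tested probes fell. The replicate numbers did not pair the hearts (correlations of deviations of -0.02, 0.04 and -0.07 for equal numbers), and not every heart correlated best with its own number. The third Mrpl51 probe (0.06, not called) turned to -0.067 without normalization and to -0.014 with array weights, and ran from -0.0004 (without hSRY-ON replicate 1) to 0.16 when 1 heart was left out. The cause of these shifts was not tested. A block for the slide was not run, because the file header names no slide. Signal over background limits 15 untested probes and 1 Mrpl51 probe with only a bound.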
